A study of Mus musculus with 2 samples.

Results

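Reelin signalling was described in the aged mouse hippocampus through 6 genes: Reln, which encodes the secreted protein Reelin, Vldlr and Lrp8, its receptors, Dab1, the adaptor that the receptors act through, and Trp73 and Lhx5, transcription factors of Cajal-Retzius cells. The genes were chosen by symbol, 6 of the 19059 genes in the files, and each symbol matched 1 row. They were read in interneuron-like and excitatory neuron-like cells, in the types of both, and in cells with at least 10 Reln UMIs and at least 1 UMI of Trp73 or Lhx5, a rule meant for Cajal-Retzius cells that is called the gate here. UMIs are unique molecular identifiers, tags that mark single captured molecules. The members and the gate were chosen with earlier results of these data known.

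The single-cell RNA-seq experiment compared C57BL/6 mice of both sexes fed standard chow (control) with mice fed chow holding 0.05% tomatidine (tomatidine). Feeding began at 21 months of age and lasted 3 months in both groups, and hippocampi of 4 mice were pooled and flash frozen for each library. Each group is therefore 1 library, so differences between mice cannot be seen, the groups could not be tested against each other and p-values are not given. Intervals are at 95% and cover counting error only.

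Reelin is a large extracellular glycoprotein. In development it is secreted by Cajal-Retzius cells near the brain surface and guides the layering of neurons, and in the adult hippocampus it comes mainly from GABAergic interneurons. It binds VLDLR and the LRP8 protein (ApoER2), which cluster and lead Src family kinases to phosphorylate DAB1, and phosphorylated DAB1 passes the signal to the cytoskeleton and to NMDA receptors before it is degraded. Trp73 encodes p73 and Lhx5 a LIM homeodomain factor, and both are needed for normal Cajal-Retzius cells. Most of these cells disappear after birth, though some persist in the hippocampus.

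In the mm10 build (GRCm38), Reln lies on chromosome 5 at chr5:21884454-22344702 on the minus strand, a gene of 460 kb with 2 coding transcripts. Dab1 spans 1125 kb at chr4:103619359-104744844, Lrp8 lies at chr4:107802261-107876840 and Trp73 at chr4:154056253-154140208, on the minus strand. Vldlr lies at chr19:27216484-27254231 and Lhx5 at chr5:120431699-120441223. The probes counted here span parts of exons only, and probe efficiency differs between genes, so levels were compared between cells within a gene and not between genes.

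RefSeq promoter windows were held for 5 of the 6 members, with none for Lhx5. The sequences upstream of Reln and of both Trp73 starts are shown because Reln encodes the ligand and Trp73 splits the cells of the gate. Each is the 250 bases before the start in the GRCm38.p6 build, from 5′ to 3′ on the minus strand, with matches to the GC box GGGCGG in capitals (both strands were searched). Reln, chr5:22344706-22344955, is first, then Trp73 at its outer start, chr4:154139876-154140125, and Trp73 at its inner start, chr4:154097174-154097423.
Reln: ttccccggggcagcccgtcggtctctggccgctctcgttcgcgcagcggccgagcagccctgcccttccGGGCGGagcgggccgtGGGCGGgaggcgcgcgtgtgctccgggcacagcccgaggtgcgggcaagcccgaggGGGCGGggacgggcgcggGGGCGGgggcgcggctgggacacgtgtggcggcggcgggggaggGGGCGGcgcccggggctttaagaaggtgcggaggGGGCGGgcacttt
Trp73 outer start: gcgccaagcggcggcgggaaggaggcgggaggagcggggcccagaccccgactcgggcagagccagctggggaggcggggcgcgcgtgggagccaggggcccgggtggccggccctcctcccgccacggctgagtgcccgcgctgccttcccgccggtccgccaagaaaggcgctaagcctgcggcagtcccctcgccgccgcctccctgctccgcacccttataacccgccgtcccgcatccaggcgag
Trp73 inner start: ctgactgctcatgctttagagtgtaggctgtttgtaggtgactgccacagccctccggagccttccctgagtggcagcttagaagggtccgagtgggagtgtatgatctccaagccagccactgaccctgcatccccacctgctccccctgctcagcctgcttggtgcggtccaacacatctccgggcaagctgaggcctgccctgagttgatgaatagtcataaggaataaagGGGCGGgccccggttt
The Reln window held 6 GC boxes and 80.0% G and C, against a median of 52.4% over 32851 promoter windows of this length. GGGCGG occurred in 32.7% of these windows, in the window of the inner Trp73 start with 1 match, and not in that of the outer start, which held 77.2% G and C. Of other motifs searched on both strands, CANNTG, the E-box of basic helix-loop-helix factors, occurred 1 time in each of the 3 windows and in 66.2% of all windows. CCCNNGGG, a core of sites for EBF factors, occurred 2 times in the Reln window and in 11.8% of all windows, where 1 of the 2 matches overlapped a GC box. TAATTA, a core bound by LIM homeodomain proteins, was in none of the 3 windows and in 4.84% of all windows. A match describes the letters and not a bound site.

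After filtering, 15115 control and 14503 tomatidine cells remained, with medians of 7077 and 7408 UMIs a cell and 262 cell barcodes found in both libraries. The filters applied removed mostly deep cells. These 489 control and 387 tomatidine cells had medians of 121431 and 119244 UMIs and held 32.6% and 25.0% of all Reln UMIs, and 23.5% and 20.1% of the UMIs of all genes. Interneuron-like cells carried their markers (10 genes such as Gad1, Gad2 and the Dlx genes) at a summed level of 5099 (control) and 5281 (tomatidine) UMIs per 1000000 UMIs of the class, abbreviated CPM, against 177 and 184 CPM in excitatory neuron-like cells. Cell names were rebuilt here from markers and are not the study's.

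Reln was concentrated in interneuron-like cells, at 380 CPM (370 to 391) in control and 378 CPM (367 to 389) in tomatidine cells. These 566 and 522 cells were 3.74% and 3.60% of the cells but held 56.2% and 43.7% of all Reln UMIs. In excitatory neuron-like cells the Reln level was 9.47 CPM (8.90 to 10.1) in 4939 control cells and 14.8 CPM, from 1390 UMIs, in 4474 tomatidine cells. A Reln UMI was found in 44.2% and 47.9% of interneuron-like cells, at a median depth of 14962.5 and 15192.0 UMIs, and in 4.99% and 4.24% of dentate granule-like cells, at 14841.0 and 13061.0 UMIs. Granule cells are not a known source of Reelin, and their share is given for comparison. The part of free RNA in it was not tested.

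**Figure D1:**
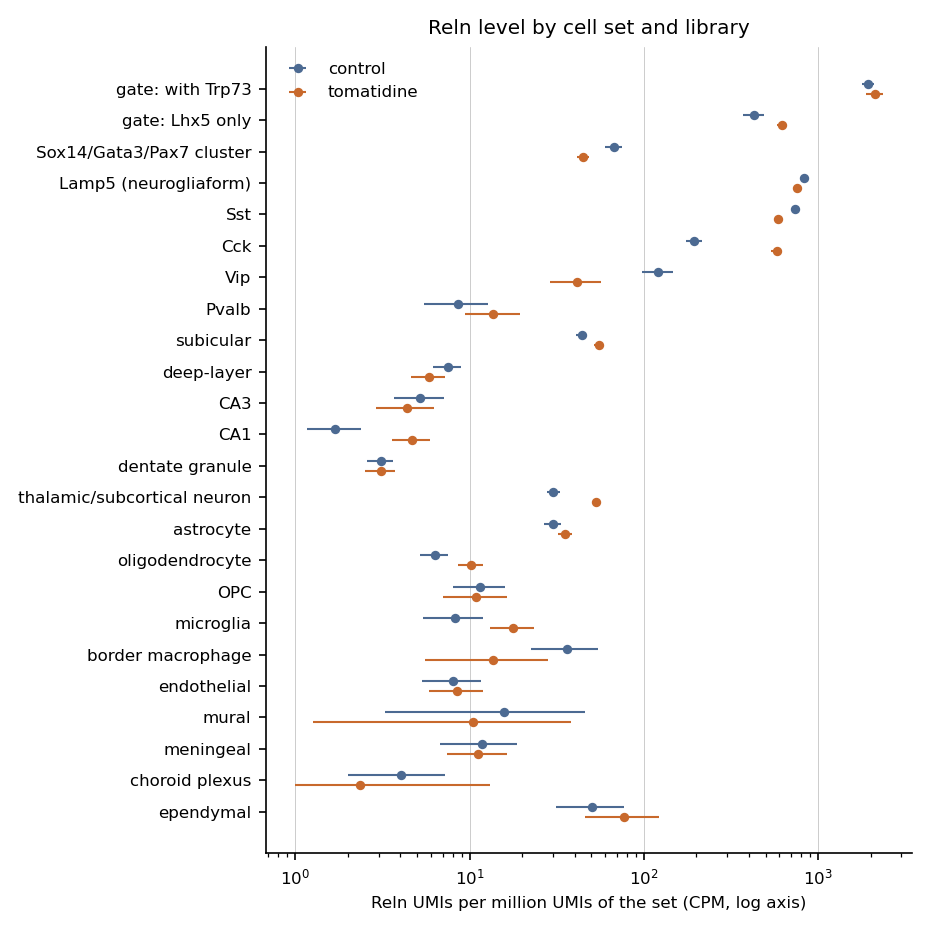
Reln level (CPM, log axis) in each cell set, for the control (blue) and tomatidine (orange) libraries. Points are levels, bars are exact 95% Poisson intervals of counting, with lower ends drawn no lower than 1 CPM. The gate sets were chosen by their Reln UMIs, so their levels describe the rule. Of the other sets Lamp5-like cells lie highest, at 828 and 758 CPM.

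Within interneuron-like cells, Reln followed the type. Lamp5-like cells, neurogliaform interneurons that act through slow GABA release, had the highest level, 828 CPM (785 to 871) in 56 control cells and 758 CPM (721 to 796) in 77 tomatidine cells. Sst-like cells, which make somatostatin and inhibit distal dendrites, followed at 736 CPM (705 to 768) in 87 cells and 588 CPM (557 to 621) in 75 cells. Both libraries placed Lamp5-like above Sst-like cells beyond counting error.

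Cck-like cells, basket cells with the peptide cholecystokinin, had a higher level in the tomatidine library, with 194 CPM (174 to 215) in 68 control cells and 577 CPM (535 to 622) in 49 tomatidine cells. In the tomatidine library their interval overlapped that of Sst-like cells. Vip-like cells, interneurons that mostly inhibit other interneurons, had 120 CPM (97.4 to 147) in 42 control and 41.3 CPM (29.1 to 57.0) in 56 tomatidine cells. Interneuron-like cells with no type had 309 and 266 CPM, and they count in the class. Their largest sub-cluster (105 control and 61 tomatidine cells) was led by genes that included the thalamic markers Tcf7l2 and Prkcd. Others had leading genes such as Gja1 of astrocytes (38 and 32 cells), Mag of oligodendrocytes (35 and 32) and Trem2 of microglia (6 and 11). The rest were led by Kcng4 (34 and 33 cells) and Trh (13 and 11 cells). Pvalb-like cells, fast-spiking basket cells, had 8.53 and 13.7 CPM, and a Reln UMI was found in 9 of 82 and 12 of 85 of them.

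Reln was unevenly spread inside a type. In the control library 31 of 56 Lamp5-like cells had at least 10 Reln UMIs and held 95.4% of the Reln of that type, while 14 had none, and the highest cell had 225 UMIs. In the tomatidine library 35 of 77 Lamp5-like cells passed that level, with 94.5% of the Reln. Of the Sst-like cells, 52 of 87 control and 36 of 75 tomatidine cells passed it, with 93.2% and 89.3% of the Reln. Among Cck-like cells the figures were 11 of 68 and 16 of 49, so that 80.4% and 94.3% of the Cck-like Reln came from 11 and 16 cells.

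Among excitatory neuron-like cells, the subicular-like type stood out, at 44.0 CPM (40.7 to 47.4) in 476 control cells and 55.0 CPM (51.7 to 58.3) in 688 tomatidine cells. Deep-layer-like cells had 7.47 and 5.83 CPM, CA3-like cells 5.18 and 4.35 CPM, CA1-like cells 1.69 and 4.64 CPM, and dentate granule-like cells 3.08 CPM in each library. Subicular-like Reln lay in few cells: 18 control and 24 tomatidine cells with at least 10 Reln UMIs held 70.5% and 63.0% of it. No granule-like cell reached 10 UMIs, and the highest had 3 UMIs in the control and 4 in the tomatidine library.

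The 42 subicular-like cells with at least 10 Reln UMIs, a set that Reln itself chose after the values were seen, also differed in other genes from the 1122 remaining cells of the type. Gpc5, a heparan sulfate proteoglycan, was at 159 and 205 CPM in them (control and tomatidine) and at 11.9 and 16.7 CPM in the rest. Dcc, a netrin receptor, was at 111 and 207 CPM against 26.3 and 28.7 CPM, and Cbln4, a secreted synapse organizer, at 138 and 305 CPM against 39.4 and 46.0 CPM. Dab1 was at 240 CPM (209 to 275) and 243 CPM (214 to 274) in these cells, and at 151 CPM (143 to 158) and 167 CPM (160 to 174) in subicular-like cells with no Reln UMI. The first set was deeper, at medians of 49243.5 and 43912.0 UMIs against 25370.0 and 20627.0, and the part of depth in these differences was not tested.

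Outside these classes, Reln was at 30.2 and 53.2 CPM in neurons with thalamic or subcortical markers. A cluster of these, led by the transcription factors Pou4f2 and Barhl1, held 547 of the 598 control and 1497 of the 1554 tomatidine UMIs. It had 174 control and 669 tomatidine cells, and within it the level was 98.0 CPM (90.0 to 107) and 73.2 CPM (69.5 to 77.0), lower in the tomatidine library where the class as a whole was higher. Reln was at 29.9 and 35.3 CPM in astrocyte-like cells, and at 50.5 CPM (31.3 to 77.2) and 77.1 CPM (45.7 to 122) in ependymal-like cells, of which there were 33 and 14. The ependymal-like and subicular-like intervals overlapped in both libraries. From deep-layer-like cells down to granule-like cells, each neighbour in the order of levels overlapped the next in the tomatidine library. In the control library CA1-like cells, at 1.69 CPM, lay below granule-like cells, at 3.08 CPM, and these intervals did not overlap.

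The gate found 71 cells, 24 in the control and 47 in the tomatidine library. That is 15.9 of 10000 cells (10.2 to 23.6) and 32.4 of 10000 (23.8 to 43.1), holding 9.26% and 12.5% of all Reln UMIs. The label of Cajal-Retzius cells held for only some of them. Of the 71 cells, 24 had Trp73 (15 of these with Lhx5 as well) and 47 had Lhx5 only. The genes of the split belong to the rule, and the split was made after the values were seen, so it is a description.

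Most of the Lhx5-only cells carried GABA genes. They numbered 10 in the control and 37 in the tomatidine library, and 45 of 47 had at least 5 UMIs of Gad1, Gad2 and Slc32a1 together, the genes for GABA synthesis and vesicular loading, with medians of 171.0 and 139.0 such UMIs. All 10 control and 31 of the 37 tomatidine cells fell in an unnamed cluster led by Sox14, Gata3 and Pax7, transcription factors known from midbrain and diencephalic inhibitory neurons. They were deep cells, at medians of 46822.0 and 39298.0 UMIs, with Reln between 11 and 34 UMIs in the control and between 10 and 85 in the tomatidine library. Tbr1 and Cxcr4, both markers of Cajal-Retzius cells, had 0 UMIs in the 10 control cells, where 0 allows up to 8.13 CPM. In the tomatidine cells they were at 2.58 and 1.29 CPM. Of 11 listed Cajal-Retzius markers, 3 went the other way and lay above interneuron-like cells. These were Lhx1 (72.7 and 52.8 CPM), Ebf3 (59.5 and 43.8 CPM, from 1 and 6 cells) and Calb2 (220 and 368 CPM).

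The cells with Trp73 were of another kind. Of these 24 cells, 3 control cells had at least 5 GABA marker UMIs, and the other 21 cells (11 control and 10 tomatidine) had a median of 0 such UMIs. The 21 cells were set apart by this count, so their low GABA marker levels are partly fixed by the choice. Those 21 cells had between 2273 and 56872 UMIs, with a median of 5861.0, and 5 of them had at least 32575. In an unnamed cluster led by Glra1 and Tfap2b lay 8 of the control and 5 of the tomatidine cells, and the remaining 3 and 5 were scattered over clusters with markers of astrocytes, oligodendrocytes, their precursors or neurons. Reln in the 21 cells was at 3606 CPM in the control library, with cells from 25 to 66 UMIs around a median of 52. In the tomatidine library it was at 2109 CPM, with cells from 11 to 60 UMIs around a median of 32. The median over cells was 5939 CPM in the control and 4734 CPM in the tomatidine library. The tomatidine cells with 56872 and 36515 UMIs each had 1 Trp73 UMI and no Ndnf. Where at least 2 Trp73 UMIs were required, whatever the GABA markers, Reln was at 2455 CPM in 12 control and 4171 CPM in 7 tomatidine cells, the opposite order. Over the 24 cells with Trp73, astrocyte markers summed to 1932 and 2208 CPM, against 610 and 706 CPM in interneuron-like cells, and microglia markers to 102 and 1365 CPM, against 243 and 296 CPM. The part of RNA from other cells in these values was not tested. The share of the 21 cells was 7.28 of 10000 cells (3.63 to 13) in the control and 6.90 of 10000 (3.31 to 12.7) in the tomatidine library. For the 24 cells it was 9.26 (5.06 to 15.5) and 6.90 of 10000. A difference in number was not detectable at these counts.

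**Figure D2:**
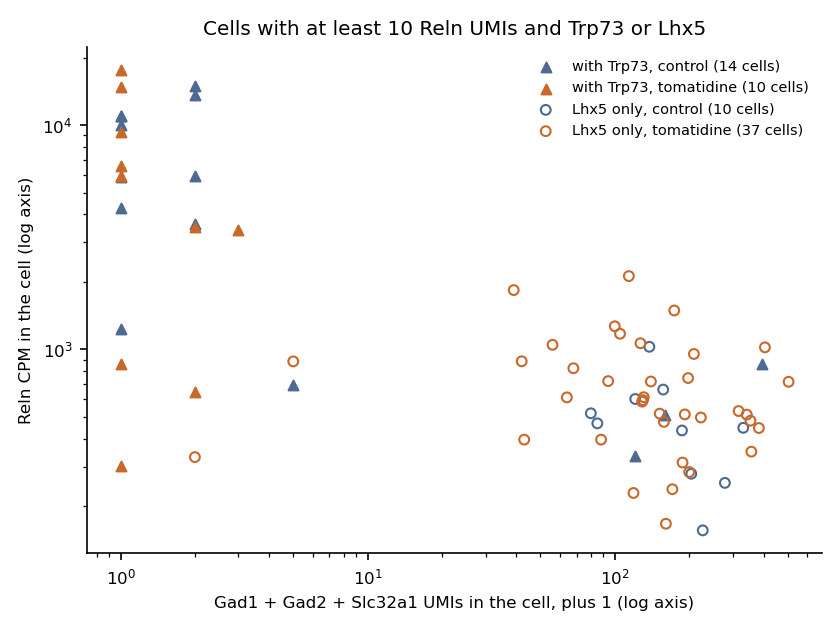
Reln level in each of the 71 gate cells (CPM, log axis) against its UMIs of Gad1, Gad2 and Slc32a1 plus 1 (log axis). Filled triangles are cells with Trp73, open circles cells with Lhx5 only, blue control and orange tomatidine. The triangles lie mostly at the upper left, with few GABA marker UMIs and up to 17598 CPM, and the circles mostly at the lower right.

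Markers of Cajal-Retzius cells that the rule did not use were mostly higher in these 21 cells than in interneuron-like cells. Of 11 listed markers, 8 lay above interneuron-like cells beyond counting error in both libraries, and 6 lay above the Lhx5-only cells. The Lhx5-only cells in turn lay above interneuron-like cells for 3 of the 11, Lhx1, Ebf3 and Calb2. Ndnf, a secreted neuron-derived factor, was at 2281 CPM (2040 to 2542) in the control cells, with UMIs in 11 of 11, and at 664 CPM (545 to 802) in the tomatidine cells, with UMIs in 8 of 10, against 107 and 151 CPM in interneuron-like cells. Cxcr4, the chemokine receptor that holds Cajal-Retzius cells near the meninges, was at 307 CPM (223 to 412) and 117 CPM (70.3 to 182), against 11.6 and 9.57 CPM. Nhlh2, a basic helix-loop-helix factor, was at 181 CPM (118 to 266) and 43.0 CPM (17.3 to 88.7), against 0.150 and 0 CPM. The tomatidine sums include the 2 cells with 56872 and 36515 UMIs, which had no Ndnf. Ndnf was also among the markers used to name Lamp5-like cells, and the interneuron-like level pools all types.

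The remaining markers were less even. Ebf3 was at 258 and 98.4 CPM, Tbr1 at 223 and 123 CPM, Cacna2d2, a calcium channel subunit, at 418 and 228 CPM, and Slc17a6, a vesicular glutamate transporter, at 230 and 369 CPM. In excitatory neuron-like cells Tbr1 was at 86.6 and 83.9 CPM. The Tbr1 interval of the control Trp73 cells (153 to 315) lay above that level, and that of the tomatidine cells (75.1 to 190) held it. Lhx1 was at 41.8 and 12.3 CPM, from 6 and 2 UMIs, and at 72.7 and 52.8 CPM in the Lhx5-only cells. Calb2, which encodes calretinin, had UMIs in 6 of 11 and 2 of 10 cells. Ebf1 had 0 UMIs in both libraries, which allows up to 25.7 and 22.7 CPM, and Ebf2 had 0 and 2 UMIs. The cells read here were chosen for few UMIs of Gad1, Gad2 and Slc32a1, so low levels of these genes are partly fixed by the choice. Over all gate cells with Trp73 these genes were at 654, 808 and 591 CPM in the control library. In the tomatidine library, where the choice left out no cell, they were at 6.15, 12.3 and 6.15 CPM. In the chosen cells Gad1 was at 27.9 and 6.15 CPM, Gad2 at 20.9 and 12.3 CPM and Slc32a1 at 6.97 and 6.15 CPM. Slc17a7, the glutamate transporter of pyramidal and granule cells, was at 656 CPM in the control and 1537 CPM in the tomatidine cells. It was at 174 and 209 CPM in interneuron-like cells and at 2065 and 2032 CPM in excitatory neuron-like cells. The part of RNA from excitatory neurons in these marker levels was not tested.

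In the same 21 cells the receptors were low to moderate, at few counts. Vldlr was at 27.9 CPM (7.60 to 71.4) and 18.4 CPM (3.80 to 53.9), Lrp8 at 97.6 CPM (53.4 to 164) and 154 CPM (99.5 to 227), and Dab1 at 105 CPM (58.6 to 173) and 178 CPM (119 to 256). Dab1 came from 5 of 11 and 4 of 10 cells. The genes that led these cells over interneuron-like cells, besides Trp73, were Nxph4, Cxcl12, Cd274 and Ebf3, each with UMIs in at least 14 of 21 cells, a list taken after the cells were chosen. Cxcl12, at 317 CPM over the 21 cells, was also at 232 and 217 CPM in dentate granule-like cells. Nxph4, at 196 CPM, was at 9.30 and 6.91 CPM in excitatory neuron-like cells.

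Cells lay close to the threshold of 10 Reln UMIs on both sides. With Trp73 or Lhx5 present, 4 control and 6 tomatidine cells had 9 Reln UMIs, just outside, and 0 control and 2 tomatidine cells had 10, just inside. Of those at 9 UMIs, 3 had Trp73, all in the tomatidine library. With at least 20 Reln UMIs the gate kept 17 and 29 cells, of which 11 and 9 had Trp73 with few GABA marker UMIs. All deposited cells together gave 28 and 57 gate cells.

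The larger gate in the tomatidine library went with the size of the Sox14, Gata3 and Pax7 cluster, which held 180 control cells (1.19% of the library) and 519 tomatidine cells (3.58%). Gate cells were 6.11% (3.09 to 10.7) of that cluster in the control and 5.97% (4.09 to 8.37) in the tomatidine library, a difference of −0.138 points (−4.96 to 3.44). Lhx5 over all cells was at 1.68 and 4.76 CPM, and this cluster without its gate cells held 64.1% and 72.2% of the Lhx5 UMIs. The larger number of gate cells in the tomatidine library was not seen under every rule: with at most 6000 genes and 15% mitochondrial UMIs a cell the gate held 9 cells in each library, and with both factors required 10 control and 5 tomatidine cells. The part of the dissected tissue in these numbers was not tested.

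Trp73 outside the gate was highest in ependymal-like cells, at 151 CPM (116 to 194) and 85.7 CPM (52.3 to 132), and in choroid plexus-like cells, at 29.2 CPM (23.2 to 36.4) and 47.1 CPM (28.8 to 72.8). Ependymal cells line the ventricles, and p73 is known for its role in their cilia. Among neurons it was highest in CA3-like cells, at 7.58 CPM (5.74 to 9.82) and 8.55 CPM (6.47 to 11.1), with a UMI in 9.07% and 11.7% of cells, against 1.37% and 1.07% of granule-like cells. CA1-like cells followed at 2.86 and 2.93 CPM. The order of ependymal-like, CA3-like and CA1-like cells held in both libraries beyond counting error.

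The receptors and the adaptor were spread far more widely than Reln. Vldlr was at 63.0 CPM (58.8 to 67.4) and 61.9 CPM (57.5 to 66.5) in interneuron-like cells and at 48.7 and 49.1 CPM in excitatory neuron-like cells. It was highest in oligodendrocyte-like cells, at 131 and 129 CPM, and in choroid plexus-like cells, at 115 and 148 CPM, and these did not separate beyond counting error. Among interneurons it was higher in Cck-like (106 and 88.0 CPM) and Lamp5-like cells (94.8 and 89.1 CPM) than in Sst-like (37.6 and 46.6 CPM) and Pvalb-like cells (39.5 and 53.2 CPM). Among excitatory types it ran from 60.1 and 60.3 CPM in granule-like cells down to 25.2 and 29.7 CPM in deep-layer-like cells.

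Lrp8 was at 91.8 CPM (86.7 to 97.1) and 97.4 CPM (91.9 to 103) in interneuron-like cells and at 73.0 and 80.0 CPM in excitatory neuron-like cells. It was high outside neurons, at 851 and 720 CPM in ependymal-like cells and at 199 and 164 CPM in endothelial-like cells. Choroid plexus-like cells had 112 and 193 CPM, against 118 and 125 CPM in Cck-like cells, the highest interneuron type. Its lowest levels were 15.5 and 14.9 CPM, in oligodendrocyte-like cells, where Vldlr was high. Between interneuron types Lrp8 stayed within 69.7 to 125 CPM.

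Dab1 ran the other way among neurons, higher in excitatory neuron-like cells (199 and 195 CPM) than in interneuron-like cells (100 and 118 CPM). CA1-like cells had 235 CPM in each library and granule-like cells 226 and 229 CPM, while CA3-like cells had 128 and 116 CPM. Lamp5-like cells, highest in Reln CPM among interneuron types, also had the most Dab1, at 264 and 257 CPM. Sst-like cells, next in Reln CPM, had 28.4 and 37.2 CPM of Dab1. Astrocyte-like cells had 157 and 156 CPM. In interneuron-like cells with at least 10 Reln UMIs, Dab1 was at 126 CPM (116 to 136) and 157 CPM (145 to 169), against 82.8 CPM (75.5 to 90.6) and 93.0 CPM (84.9 to 102) in those with none, while the Vldlr intervals of these sets overlapped in both libraries. Lrp8 was lower in the cells with at least 10 Reln UMIs in the control library, at 83.4 CPM (75.4 to 92) against 100 CPM (92.3 to 109), and its intervals overlapped in the tomatidine library, at 86.9 CPM (78.4 to 96.1) against 97.8 CPM (89.5 to 107). Cells with Reln were deeper, at medians of 36769.5 and 36770.5 UMIs against 8306.0 and 10214.5. The sets also differed in type. Of the 120 control and 112 tomatidine cells with at least 10 Reln UMIs, 31 and 35 were Lamp5-like and 52 and 36 Sst-like. In each library 73 Pvalb-like cells had no Reln UMI. Cells with no type lay in both sets as well. The parts of depth and of type were not tested.

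**Figure D3:**
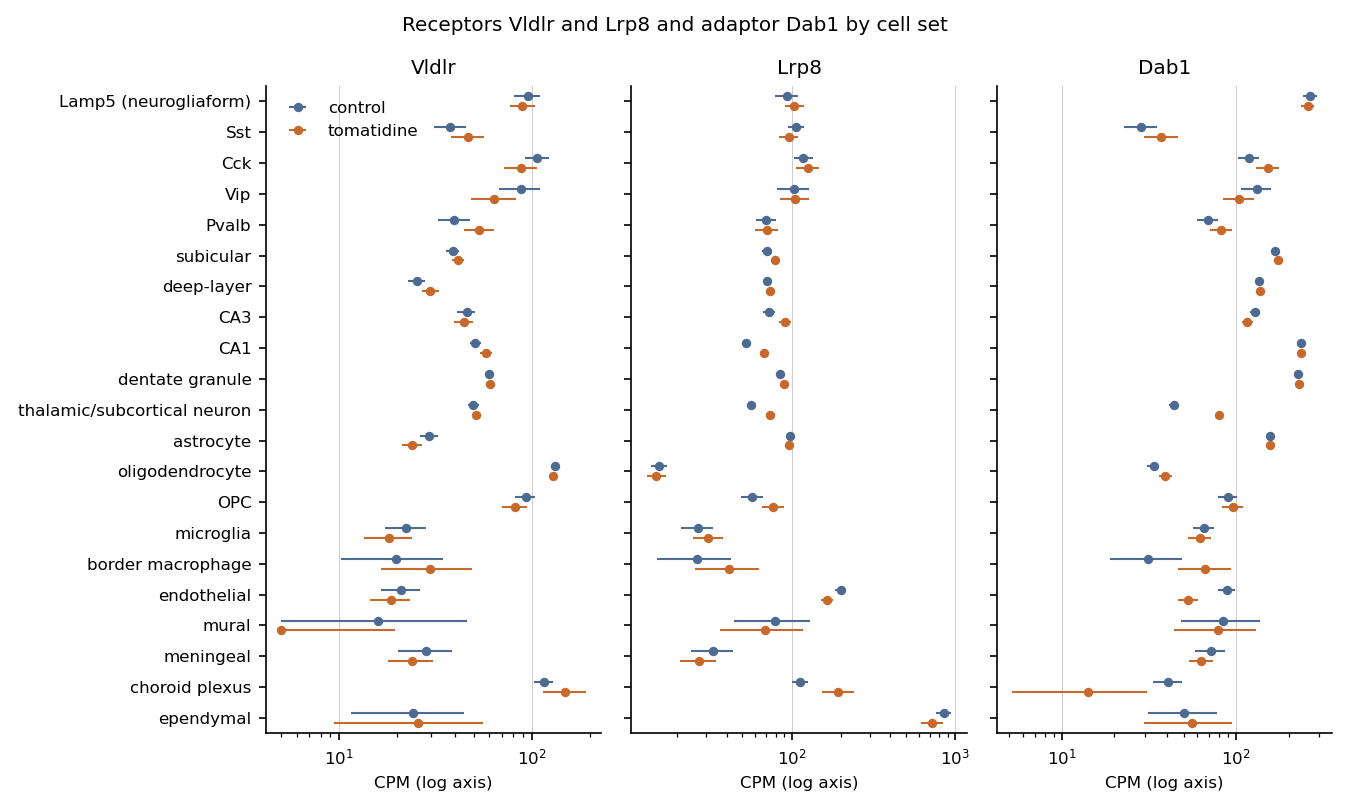
Levels of Vldlr, Lrp8 and Dab1 (CPM, log axes) by cell set in the control (blue) and tomatidine (orange) libraries, with exact 95% Poisson intervals. A level of 0, Vldlr in mural-like tomatidine cells, is drawn at 5 CPM. Vldlr peaks in oligodendrocyte-like and choroid plexus-like cells, Lrp8 in ependymal-like cells, and Dab1 in Lamp5-like, CA1-like and dentate granule-like cells.

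The genes most like each member over 22 named classes and types of both libraries (44 points, which share libraries and depth) were found by Pearson correlation of log2(CPM + 10) among 13239 genes. For Reln they were Ldoc1 (r = 0.859), Npy (0.838) and Siah3 (0.810), for Vldlr they were Nfasc (0.722), Selenoi (0.720) and Gpr75 (0.692), for Lrp8 Bicdl1 (0.812), Ccdc39 (0.796) and Ormdl3 (0.793), and for Dab1 Gpr27 (0.836), Sipa1l1 (0.821) and H1fx (0.814). Between members r was 0.161 for Reln and Vldlr, 0.246 for Reln and Lrp8, 0.165 for Reln and Dab1, −0.038 for Lrp8 and Vldlr and −0.015 for Dab1 with either receptor.

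Between the libraries, Reln in interneuron-like cells was nearly equal, with a log2 CPM ratio of tomatidine over control of −0.01 (−0.07 to 0.05). This sum joined types whose levels differed in opposite directions. Cck-like cells gave a log2 ratio of 1.57 (1.39 to 1.76) and Vip-like cells −1.54 (−2.13 to −0.98), while Sst-like cells gave −0.32 (−0.42 to −0.22) and Lamp5-like cells −0.13 (−0.23 to −0.02). The share of Cck-like cells with a Reln UMI was 42.6% and 57.1%, a difference of 14.5 points (−3.74 to 31.4), whose interval holds 0. It also holds 0 in Vip-like (−8.33 points, −26.8 to 10.4), Sst-like (−2.80, −13.1 to 6.86) and Lamp5-like cells (−3.57, −18.0 to 11.9). With at least 2 Reln UMIs a cell, the Vip-like difference was −20.8 points (−37.2 to −4.23). Of the Vip-like Reln, 52.1% came from 2 control cells and 29.7% from 1 tomatidine cell. In all deposited cells, clustered again, the ratio of interneuron-like cells was 0.23 (0.18 to 0.28), and in a marker gate without clusters 0.28 (0.22 to 0.34).

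Reln in excitatory neuron-like cells gave a log2 ratio of 0.64 (0.52 to 0.76), a 1.56-fold higher level in the tomatidine library and past the 1.5-fold used for calls. Subicular-like cells, the type with the most Reln, were 9.64% (8.83 to 10.5) of excitatory neuron-like cells in the control and 15.4% (14.3 to 16.5) in the tomatidine library and held 65.2% and 78.0% of their Reln. Without this type the levels were 3.83 and 4.11 CPM and the ratio 0.10 (−0.12 to 0.33), and within it the ratio was 0.32 (0.18 to 0.46). CA1-like cells gave 1.46 (0.84 to 2.11), from 33 and 65 UMIs. A UMI was found in 4.47% and 7.35% of them, against 4.99% and 4.24% of granule-like cells, at depths that were not matched. If 1500 UMIs were drawn from each cell, the expected shares were 0.423% and 0.882% in CA1-like and 0.584% and 0.525% in granule-like cells. The CA1-like difference was then 0.459 points (−0.503 to 1.58), whose interval holds 0. In all deposited cells, clustered again, the ratio of excitatory neuron-like cells was −0.10 (−0.18 to −0.02), the opposite direction.

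Vldlr differed little between the libraries, with log2 ratios of −0.02 (−0.17 to 0.12) in interneuron-like and 0.01 (−0.05 to 0.07) in excitatory neuron-like cells. Lrp8 gave 0.08 (−0.03 to 0.20) and 0.13 (0.09 to 0.18), with CA1-like cells at 0.36 (0.23 to 0.49) and CA3-like cells at 0.32 (0.16 to 0.49). Dab1 gave 0.24 (0.13 to 0.35) in interneuron-like cells, 100 CPM in the control and 118 CPM in the tomatidine library, and −0.03 (−0.06 to −0.00) in excitatory neuron-like cells. None of these passed 1.5-fold.

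**Figure D4:**
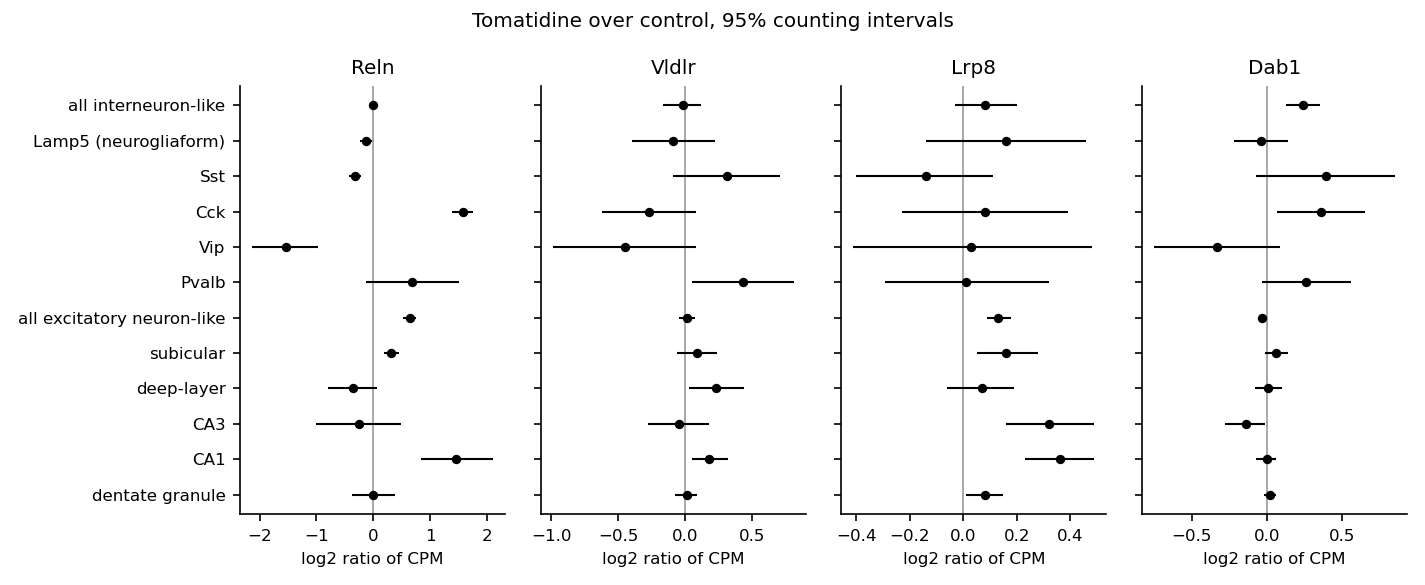
Log2 ratio of CPM, tomatidine over control, for Reln, Vldlr, Lrp8 and Dab1 in both classes and their types. Points are ratios, bars 95% counting intervals, and the x axes differ between genes. Reln spreads from −1.54 in Vip-like to 1.57 in Cck-like cells around −0.01 in all interneuron-like cells, while the largest ratio of Vldlr, Lrp8 or Dab1 in either direction is −0.45.

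Markers of other cell types moved between the libraries as well. In excitatory neuron-like cells all 10 astrocyte markers were higher in the tomatidine library (843 and 1010 CPM summed), as were all 10 oligodendrocyte markers (1105 and 1250 CPM) and 8 of 10 interneuron markers (177 and 184 CPM), while 1 of 8 choroid plexus markers was higher (268 and 66.0 CPM). In subicular-like cells 9 of 10 interneuron markers were higher, with a log2 ratio of their sum of 0.99. Within the interneuron types, the summed choroid plexus markers were lower in the tomatidine library in Cck-like (109 and 31.8 CPM), Vip-like (552 and 30.2 CPM), Sst-like (112 and 13.9 CPM) and Lamp5-like cells (91.9 and 14.5 CPM). In Cck-like cells excitatory neuron markers were higher (551 and 876 CPM) and thalamic markers lower (132 and 39.4 CPM). In Vip-like cells mural markers were higher (10.3 and 214 CPM), as were OPC markers in Sst-like cells (18.5 and 147 CPM), while oligodendrocyte markers were lower in Lamp5-like cells (1544 and 773 CPM). The summed interneuron markers of these 4 types had log2 ratios between −0.05 and 0.03. The part of RNA from other cells in the Reln ratios was not tested.

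Of 50 further genes of the Reelin pathway, 48 were in the files and 45 had at least 50 UMIs over both libraries in interneuron-like cells. In that class 2.49% of 11987 genes were at least 1.5-fold higher in the tomatidine library and 0.909% at least 1.5-fold lower. Of the 4 members tested there, 0 passed 1.5-fold, and of the 45 listed genes 1 was higher and 0 were lower. The list had a median log2 ratio of 0.04, and so had all genes tested. The gene past 1.5-fold was Mylip, whose ubiquitin ligase sends lipoprotein receptors to the lysosome, from 47 UMIs at 3.52 CPM and 66 UMIs at 5.45 CPM, a log2 ratio of 0.63 (0.07 to 1.20). Nrp1, a co-receptor, was next at 0.29 (0.00 to 0.57). The lowest were Adamts4, a protease that cuts Reelin, at −0.34 (−0.59 to −0.08) and Efnb1, an ephrin, at −0.27 (−0.62 to 0.07). Mylip was at 174 and 171 CPM in microglia-like cells, and Adamts4 at 581 and 515 CPM in oligodendrocyte-like cells. In interneuron-like cells, summed microglia markers were at 243 and 296 CPM and oligodendrocyte markers at 2561 and 2089 CPM. The part of RNA from other cells in these ratios was not tested.

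In excitatory neuron-like cells 3.27% of 13813 genes were at least 1.5-fold higher and 0.579% at least 1.5-fold lower in the tomatidine library. Reln was the 1 member of 5 tested that passed, and 0 of 48 listed genes passed in either direction, with a list median of 0.03 against 0.05 for all genes. The highest were Apoe, another ligand of these receptors, at 0.42 (0.40 to 0.44), and Adamts2, a Reelin protease, at 0.39 (0.28 to 0.50). Apoe was at 360 and 483 CPM here and at 17047 and 16569 CPM in astrocyte-like cells. Adamts2 was at 11.4 and 14.9 CPM here and at 66.4 and 65.0 CPM in oligodendrocyte-like cells. The lowest were Lrp2 at −0.52 (−1.27 to 0.19), from 45 and 27 UMIs, and Cul5, a ligase scaffold that removes phosphorylated Dab1, at −0.12 (−0.16 to −0.07).

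**Figure D5:**
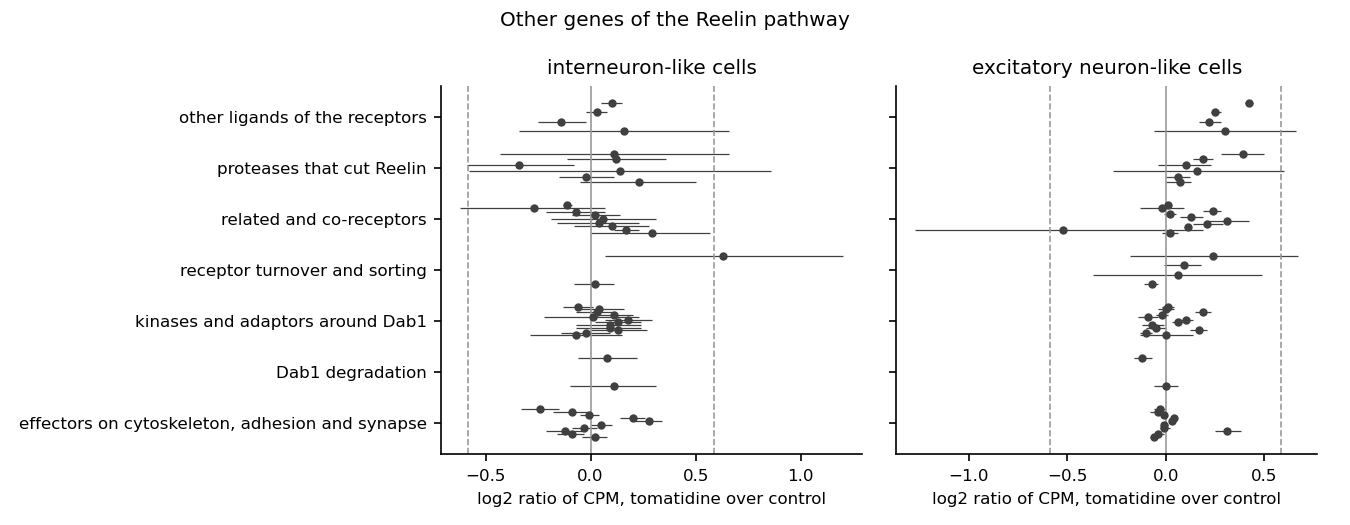
Log2 ratio of CPM, tomatidine over control, of the other Reelin pathway genes with at least 50 UMIs, by role, in interneuron-like (left) and excitatory neuron-like cells (right). Points are genes with 95% counting intervals, and dashed lines mark 1.5-fold. Mylip in interneuron-like cells is the 1 gene past the lines.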

How the data were processed

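The 2 libraries of single cells from frozen hippocampus were prepared with a fixed, probe-based droplet kit. Reads were aligned to mm10 and UMIs counted by the authors with Cell Ranger, version 8.0.0 per the labels and 7.1.0 per the file headers, and deposited filtered matrices of raw counts for each library.

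The study states 2 sets of limits. The set given with its clustering was applied to each cell: 500 or more UMIs, over 250 genes, complexity above 0.8 and mitochondrial UMIs under 20%. Its second set, with an upper limit of 6000 genes and a lower mitochondrial limit (15% here), was an alternative. The 2% of cells with the highest Scrublet scores (scanpy 1.11.5) were then removed from each library, since the caller's own threshold marked 0 control and 2 tomatidine cells. This left 206744516 and 200595072 UMIs. Seurat 5.3.0 (R 4.3.3) integrated and clustered the libraries at resolution 0.8 on 30 principal components of 2000 variable genes, from which the members and the pathway list were left out. Interneuron-like cells were clustered again with 20 components to find their types. Clusters were named from marker lists by a rule that was revised after the clusters had been seen. Gate cells were taken out of every class and type, except where a sentence counts them within a cluster. The members and lists were chosen with earlier results of these data known.

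CPM is the UMIs of a gene per 1000000 UMIs of a set of cells. Intervals at 95% are exact Poisson for levels, exact Clopper-Pearson for shares, Newcombe for differences of shares and exact conditional binomial for ratios (SciPy 1.17.1). With 1 library a group no test was run, and a gene was called where its CPM differed 1.5-fold, among genes with at least 50 UMIs over both libraries. On simulated counts without biological spread this recovered 99.0% of 2-fold changes in interneuron-like cells and 99.5% in excitatory neuron-like cells, and called 0.830% and 0.580% of unchanged genes. Named genes were the members, the Cajal-Retzius and GABA markers, the 2 highest and 2 lowest ratios of the pathway list and any listed gene past 1.5-fold, and the 3 genes most like a member. Genes named for subicular-like cells and the leading genes of the Trp73 cells were chosen after their values were seen. Alternatives changed the filters, doublet removal, integration, resolution, scaling (edgeR 4.0.16 for TMM) and the gate.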

Additional observations from a re-analysis of the deposited data

Results flagged for a closer look

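Reln differed between the libraries on opposite sides of 0 in different interneuron types. The log2 ratio of tomatidine over control was 1.57 in Cck-like cells, and −1.54 in Vip-like, −0.32 in Sst-like and −0.13 in Lamp5-like cells, with counting intervals that left out 0. The difference between types was not tested, since each group is 1 library. Most of the Reln of Cck-like cells came from 11 control and 16 tomatidine cells. Of the Vip-like Reln, 2 control cells held 52.1% and 1 tomatidine cell held 29.7%.

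Cells outside the filters held 32.6% of the Reln UMIs of the control library and 25.0% of those of the tomatidine library. They were 489 and 387 cells with medians of 121431 and 119244 UMIs, and held 23.5% and 20.1% of all UMIs. Of the cells with at least 10 Reln UMIs, 54 of 257 control and 57 of 311 tomatidine cells were among them.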

How the results depend on the processing

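No paired analysis was possible because each group is 1 library, and no replicate could be left out. Of the alternatives to the class ratios, 85 values stayed within the counting interval of the value reported, 19 moved outside it and 4 turned the sign of a ratio whose interval left out 0, and the causes were not tested. Ratios whose interval held 0, of Reln, Vldlr and Lrp8, also crossed 0 under some alternatives. In all deposited cells, clustered again, the log2 ratio in interneuron-like cells was 0.23 for Reln and 0.39 for Dab1, and that of Reln in excitatory neuron-like cells changed sign to −0.10. Without doublet removal Reln was at 0.10 and 0.47 in these classes and Lrp8 at 0.07 in excitatory neuron-like cells. A gate on markers in each cell gave 0.28 for Reln, −0.23 for Vldlr and 0.36 for Dab1 in interneuron-like cells, and 0.49 for Reln, 0.08 for Lrp8 and 0.00 for Dab1, a change of sign, in excitatory neuron-like cells. With at most 6000 genes and 15% mitochondrial UMIs a cell, interneuron-like cells had −0.05 for Lrp8 and 0.06 for Dab1, and excitatory neuron-like cells −0.06 for Vldlr and 0.02 for Dab1, a change of sign. In excitatory neuron-like cells, TMM and median-of-ratios scaling each gave 0.08 for Lrp8 and −0.08 for Dab1, and the mean over cells gave 0.01 for Dab1, again a change of sign. Of alternatives chosen after seeing the data, leaving out cells with at least 10 Reln UMIs gave 0.08 for Reln in interneuron-like cells, and leaving out the subicular-like type gave 0.10 for Reln in excitatory neuron-like cells.

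The gate held 43 control and 77 tomatidine cells at 5 Reln UMIs, 29 tomatidine cells at 20, 10 and 5 cells with both factors required, and 9 cells in each library under the limits on genes and mitochondrial UMIs, which were chosen for the gate after seeing the data. Of the pathway list, at a lower limit, a CPM ratio of 5 to 4, 1 gene was higher and 1 lower in interneuron-like cells, where 9.07% of all genes were higher and 3.35% lower, and 2 were higher and 1 lower in excitatory neuron-like cells, against 11.2% and 1.81%. With 1 UMI in each library enough, 2 were higher and 1 lower in interneuron-like cells, against 8.10% and 4.14%. Few counts limit the gate cells, and pooling of mice limits every ratio.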

Other observations

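Dab1 in neurons with thalamic or subcortical markers was at 44.0 CPM in the control and 80.1 CPM in the tomatidine library, a log2 ratio of 0.86 (0.75 to 0.98). The cluster of these neurons led by Pou4f2 and Barhl1, with 174 and 669 cells, had 92.6 and 99.7 CPM, a ratio of 0.11 (−0.03 to 0.25). In endothelial-like cells Dab1 was at 88.5 and 53.1 CPM, a ratio of −0.74 from 309 and 207 UMIs. Choroid plexus-like cells numbered 347 in the control and 33 in the tomatidine library.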
